A study of Mus musculus with 8 samples.

Results

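The genes described here encode the proteins of shelterin, the complex that caps chromosome ends, and the protein parts of telomerase. The 10 genes, taken as a list of names, were Terf1, Terf2, Terf2ip, Tinf2, Acd, Pot1a, Tert, Dkc1, Nop10 and Nhp2. Every probe set whose single gene symbol in the platform annotation was one of these was used, which gave 25 probe sets of 10 genes among 45037 on the tumour arrays. On the smaller adenovirus array the same rule gave 13 probe sets of 9 genes among 22626, and Dkc1 had none there. All 13 are also on the tumour array. A probe set is a group of short probes to 1 transcript region, and its signal is given on the linear MAS5 scale.

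The 6 tumours, each on its own array, were hepatocellular carcinomas of p53-/- HBs transgenic animals 12 to 15 months old. A group of 3 came from mTERC- mice, which lack the telomerase RNA, and 3 from mTERC+ mice. The other 2 arrays carried liver RNA of p53-/- mice 48 hours after intravenous adenovirus, 1 array for Ad TRF2DBDM and 1 for Ad GFP, each pooled from 3 mice. All mice had a C57BL/6J background, so p53 was absent and the background shared in every group compared. No array of liver without a tumour or a virus, or with p53, was analysed here, and Terc and Trp53 were not analysed here.

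Shelterin binds the repeats at chromosome ends and keeps them from being read as DNA breaks. Terf1 and Terf2 bind the duplex repeats, Terf2ip rides on Terf2, Tinf2 joins these parts to Acd, and Acd carries Pot1a, which binds the single-stranded overhang. Telomerase adds repeats with the reverse transcriptase Tert on an RNA template, and that RNA is held by the H/ACA proteins Dkc1, Nop10 and Nhp2. The H/ACA proteins also serve the small nucleolar RNAs that guide pseudouridine formation in ribosomal RNA, so most of their work in a cell is not at telomeres.

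Array medians lay at 54.5 to 59.4 for 5 tumours and at 75.1 for mTERC- tumour 2, and the median was 52.5 in the TRF2DBDM pool and 46.1 in the GFP pool. For mTERC- tumour 2 the 3' Gapdh control exceeded the 5' one by a ratio of 13.8, while that ratio was 0.983 to 1.18 for the other 5 tumours. The 18S control read 318.5 (mTERC- tumour 2) and 349 (mTERC- tumour 3), against 11010 to 27810 for the other 4 tumours. The labels give the tissue as hepatocytes, and of 7 hepatocyte markers on the tumour arrays 0 stayed below the array median in every tumour. The mean was lower in mTERC- tumours for 6 of these 7. Their sums overlapped, at 126996 to 187613 in mTERC- and 163083 to 197143 in mTERC+ tumours. The summed signal of 8 neutrophil markers was 9421 to 21843 in mTERC- tumours and 318 to 3161 in mTERC+ tumours, with a higher mean in mTERC- tumours for 8 of 8. The summed signal of 8 endothelial markers was 974.3 to 1597 in mTERC- and 1766 to 2368 in mTERC+ tumours, with a lower mean in mTERC- tumours for 8 of 8. Sums also did not overlap for 4 cholangiocyte markers, at 424.6 to 700.6 in mTERC- and 278.5 to 380.9 in mTERC+ tumours (higher for 4 of 4), for 3 erythroid markers, at 173.9 to 507.0 against 671.5 to 1069 (lower for 2 of 3), and for 5 B and plasma cell markers, at 136.8 to 242.1 against 288.2 to 486.5 (lower for 4 of 5). Macrophage markers were lower for 9 of 10, with sums of 13178 to 18572 in mTERC- and 11107 to 51073 in mTERC+ tumours. The part of these cells and of array quality in the differences below was not tested except where a value is given. In bulk tissue, fewer cells of a type and less RNA per cell cannot be told apart.

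The first comparison asked whether shelterin and telomerase transcripts differed in tumours of mice lacking the telomerase RNA. None of the 10 genes passed the test. Of the 25 probe sets 0 had a Benjamini-Hochberg adjusted p below 0.05 in limma, where 0.0200% of all probe sets did, and 0 had an unadjusted p below 0.05, where 4.51% did. The adjusted p of the 25 lay between 0.955 and 1.000 in limma. The mean log2 level was higher in mTERC- tumours for 17 probe sets and lower for 8, while it was lower for 47.0% of all probe sets. The median log2 difference was 0.21 over the 25 and 0.03 over all probe sets.

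The precision was set by 3 tumours a group. Differences are on the scale of log2 of the signal plus 32, which lessens the change of weak probe sets, and the leading probe set of a gene is the one of highest mean signal. For these leading probe sets the SE of the log2 difference was 0.33 to 0.64, and the 95% interval reached 0.94 to either side at the median gene. Signal was also weak for many probe sets: 10 of 25 were above the array median on all 6 tumour arrays, 12 on some of them and 3 on none.

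**Figure D1:**
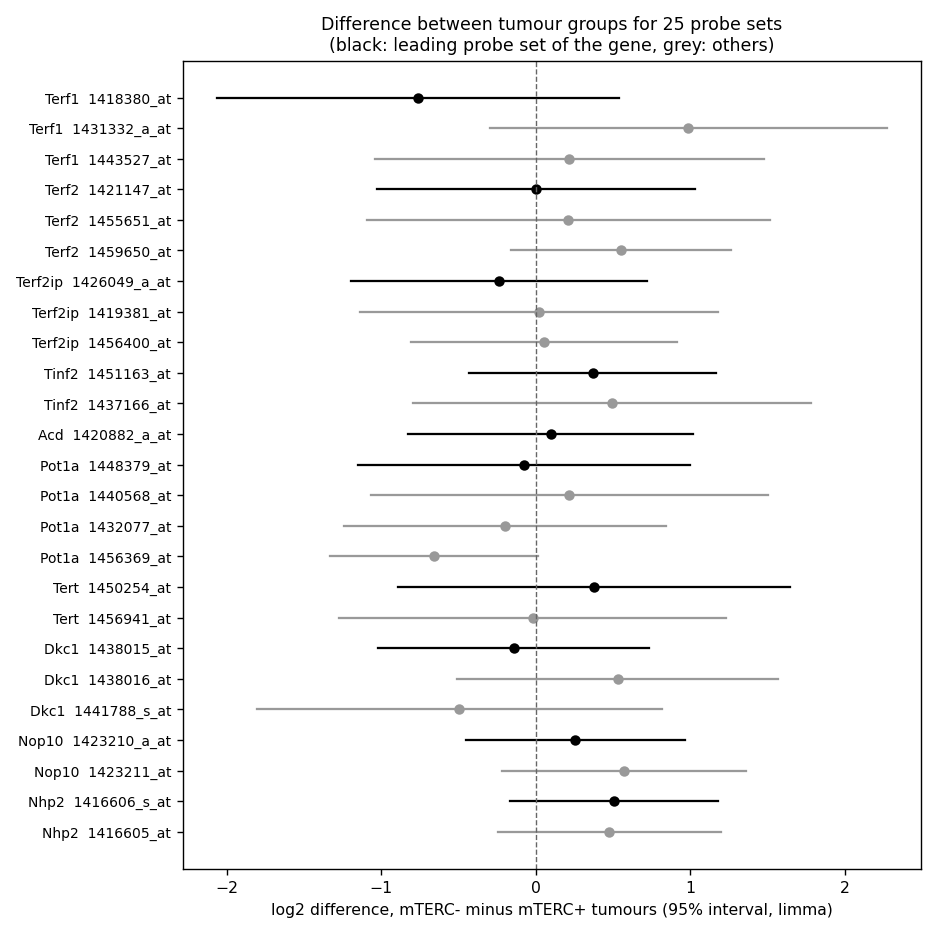
Log2 difference between mTERC- and mTERC+ tumours (x axis) for each of the 25 probe sets (y axis), with 95% intervals from limma. Black marks the leading probe set of each gene and grey the others, and every interval includes 0.

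Among the proteins that bind the duplex repeats, Terf1 had the lowest difference of the leading probe sets, but its probe sets disagreed. Probe set 1418380_at had a signal of 81.1, 5.3 and 44.8 in mTERC- tumours 1, 2 and 3, against 154.8, 87.1 and 39.0 in mTERC+ tumours 1, 2 and 3. The groups overlapped, and mTERC- tumour 2 was the lowest of the 6. The log2 difference was -0.76 (SE 0.64, adjusted p = 0.958 in limma), and without mTERC- tumour 2 it was -0.32. Probe set 1431332_a_at of Terf1 ran the other way, at 89.4, 90.3 and 46.9 in mTERC- and 8.6, 3.9 and 70.8 in mTERC+ tumours. Its log2 difference was 0.99 (SE 0.64; adjusted p = 0.955, limma), and that of the third probe set, 1443527_at, was 0.22. The 2 probe sets first named ran against each other over the 6 tumours (Pearson r = -0.70, Spearman rho = -0.77). Their exact permutation p was 0.138 and 0.103, or 0.688 and 0.514 adjusted over the 25 pairs of probe sets compared, and r was -0.43 without the 2 tumours farthest from the median. The arrays gave no single direction for Terf1.

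Terf2, whose truncated form the TRF2DBDM virus delivers, had the same mean in both tumour groups on its leading probe set. Probe set 1421147_at had 124.1, 145.7 and 73.4 in mTERC- tumours, against 158.6, 96.9 and 86.5 in mTERC+ tumours. That is 114 ± 37.1 against 114 ± 39.0 (SD, n = 3 each), a log2 difference of 0.00 with a 95% interval from -1.03 to 1.03 in limma. Probe set 1455651_at spread widely within both groups, from 17.3 to 129.5 in mTERC- and from 14.6 to 130.0 in mTERC+ tumours. The weak probe set 1459650_at was the 1 of the 25 whose groups did not overlap. It had 51.6, 17.0 and 18.4 in mTERC- and 7.8, 10.5 and 6.5 in mTERC+ tumours, all below the array medians, and did not pass (adjusted p = 0.955 in limma). Groups did not overlap with mTERC- higher for 5.67% of all probe sets and with mTERC- lower for 4.28%, of which the members had 0.

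Terf2ip, the mouse Rap1 protein that is carried to telomeres by Terf2, had its highest signal in mTERC+ tumour 1. Probe set 1426049_a_at had 97.3, 179.0 and 112.1 in mTERC- tumours, against 208.4, 117.7 and 147.4 in mTERC+ tumours. The groups overlapped through mTERC- tumour 2, and the log2 difference was -0.24 (SE 0.47, adjusted p = 0.986 in limma). Both other probe sets of Terf2ip had differences of 0.02 and 0.06, and 1419381_at was high in 1 tumour of each group, at 100.4 in mTERC- tumour 1 and 108.8 in mTERC+ tumour 3, and at most 10.4 in the other 4.

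**Figure D2:**
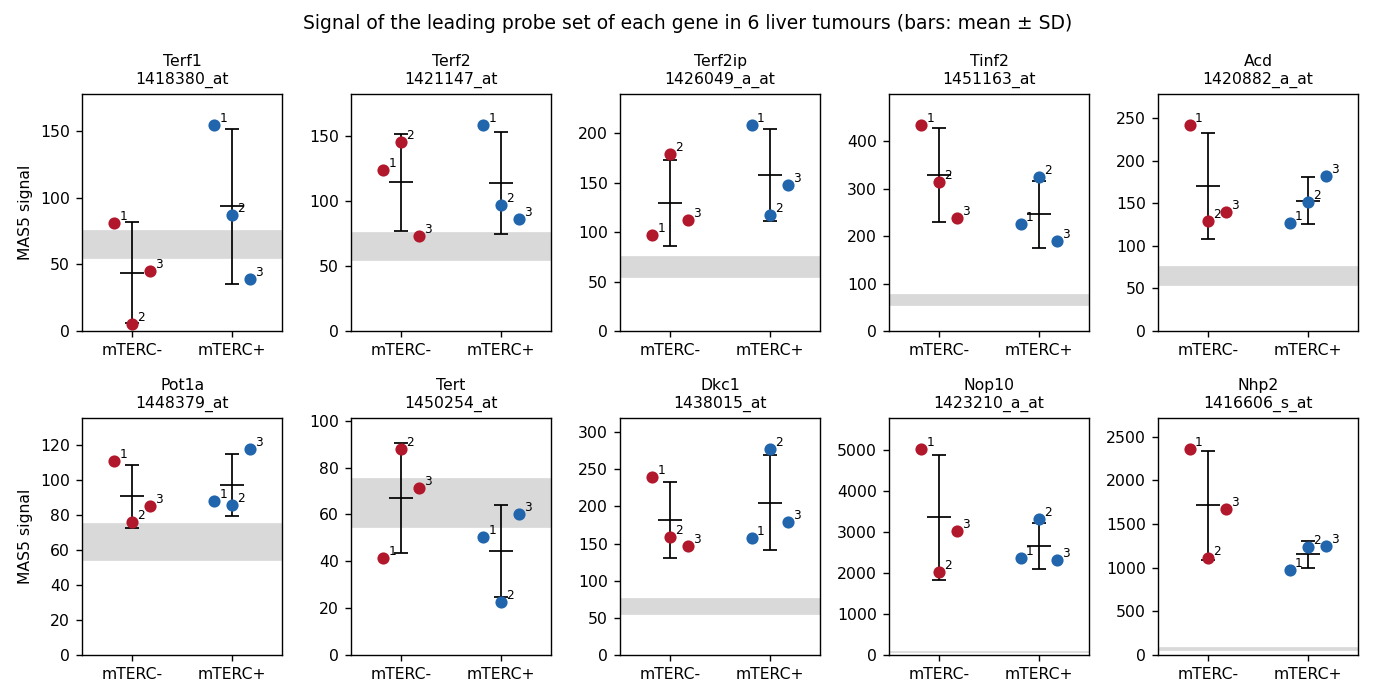
MAS5 signal (y axis, linear from 0) of the leading probe set of each of the 10 genes in mTERC- (red) and mTERC+ (blue) tumours, numbered by tumour, with the mean and SD of 3 tumours in black and the range of the 6 array medians in grey. In every panel the groups overlap, and Terf1 and Tert were each above the array median in 3 of the 6 tumours.

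Tinf2, the bridge of the complex, was above the array median in all 6 tumours on its leading probe set 1451163_at. Its signal was 434.3, 314.6 and 237.8 in mTERC- tumours, against 224.9, 324.7 and 189.1 in mTERC+ tumours. The highest tumour was mTERC- 1 and the lowest mTERC+ 3, with overlap between. The log2 difference was 0.37 (SE 0.40, adjusted p = 0.966 in limma). It stayed above 0 in each of the 18 other settings tried, the mean of the probe sets of Tinf2 among them, at 0.17 to 0.77. Its other probe set had 0.49, or -0.075 with a block for the 18S control and -7.3e-05 without mTERC+ tumour 1, and was highest in mTERC- tumour 2, at 165.4.

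Acd, which recruits telomerase through its contact with Tert, had 1 probe set, above the array median in all 6 tumours. Its signal was 241.6, 129.4 and 139.6 in mTERC- tumours, against 126.8, 151.0 and 181.4 in mTERC+ tumours. Only mTERC- tumour 1 stood outside the range of the other group, and the log2 difference was 0.10 (SE 0.45, adjusted p = 0.994 in limma). Without that tumour the difference was -0.14.

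Pot1a, the protein on the single-stranded overhang, had 4 probe sets, and 1 of them was above the array median in every tumour. Probe set 1448379_at had 110.9, 76.1 and 85.5 in mTERC- tumours, against 88.2, 85.8 and 118.0 in mTERC+ tumours, which differed by -0.08 on the log2 scale (SE 0.53, adjusted p = 0.997 in limma). The weakest, 1456369_at, had 4.8, 9.8 and 2.7 in mTERC- and 8.5, 44.4 and 36.1 in mTERC+ tumours. All of these lay below the array medians, and its log2 difference of -0.66 (SE 0.33) had the smallest unadjusted p of the 25, at 0.0542, with an adjusted p of 0.955 in limma. The probe sets 1448379_at and 1440568_at ran against each other over the 6 tumours (Pearson r = -0.95, Spearman rho = -0.89). Their exact permutation p was 0.0125 and 0.0333, or 0.104 and 0.417 adjusted over the 25 pairs, and r was -0.78 without the 2 tumours farthest from the median.

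Tert, the catalytic subunit, was weak: its leading probe set was above the array median in 3 of the 6 tumours and its other probe set in 1. Probe set 1450254_at had 41.5, 88.0 and 71.1 in mTERC- tumours, against 50.2, 22.5 and 60.3 in mTERC+ tumours. Values of the groups interleaved, and mTERC- tumour 2, whose array had the highest median, was the highest. The log2 difference was 0.38 with a 95% interval from -0.89 to 1.65 (adjusted p = 0.979 in limma), or 0.22 without that tumour and -0.02 with a block for the 18S control. The other probe set, 1456941_at, was at 163.5 in mTERC- tumour 2 and 3.6 to 52.7 in the other 5. A transcript level of Tert at this signal could not be ranked between the groups.

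Among the H/ACA genes, the probe sets of Nhp2, and those of Nop10, varied alike over the tumours, but neither pair passed after adjustment. Nhp2, which joins the complex through Nop10, had the highest log2 difference of the leading probe sets. Like Nhp2, Nop10, the small protein at the centre of the complex, was highest in mTERC- tumour 1 on its leading probe set. Probe set 1416606_s_at of Nhp2 had a signal of 2361, 1110 and 1674 in mTERC- tumours, against 968.6, 1235 and 1247 in mTERC+ tumours. The other, 1416605_at, had 868.9, 406.1 and 879.3 against 384.9, 552.9 and 514.2. On both, mTERC- tumours 1 and 3 lay above every mTERC+ tumour, while mTERC- tumour 2 lay inside their range. The log2 differences were 0.51 (SE 0.33) and 0.48 (SE 0.36), and both had an adjusted p of 0.955 in limma.

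Nop10 had the pattern of Nhp2 on probe set 1423211_at only. Probe set 1423210_a_at had 5019, 2018 and 3019 in mTERC- tumours, against 2348, 3301 and 2306 in mTERC+ tumours. On it mTERC- tumour 3 lay below mTERC+ tumour 2, and mTERC- tumour 2 was the lowest of the 6. Probe set 1423211_at had 998.6, 293.6 and 543.4 against 256.2, 484.9 and 363.1. The groups overlapped on both, with mTERC- tumour 1 the highest of the 6, and the log2 differences were 0.26 (SE 0.35) and 0.57 (SE 0.39), with adjusted p of 0.969 and 0.955 in limma.

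Dkc1, the pseudouridine synthase of the complex, did not follow them clearly. Probe set 1438015_at had 240.0, 158.7 and 146.5 in mTERC- tumours, against 157.6, 277.8 and 179.2 in mTERC+ tumours. Here mTERC+ tumour 2 was the highest, the groups overlapped, and the log2 difference was -0.14 (SE 0.43, adjusted p = 0.990 in limma). Probe set 1438016_at, made to the same transcript record, had 0.53 and 1441788_s_at had -0.49, so the 3 probe sets of Dkc1 gave both signs.

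Of the 25 pairs, Pearson r over the 6 tumours was highest within Nop10, within Nhp2 and between the leading probe sets of both genes. Within Nop10, Pearson r was 0.95 and Spearman rho 0.77, with an exact permutation p of 0.0111 and 0.103 (0.104 and 0.514 adjusted over 25 pairs), and r was 0.83 without the 2 farthest tumours. Within Nhp2, r was 0.92 and rho 0.89 with an exact permutation p of 0.00556 and 0.0333 (0.104 and 0.417 adjusted), and r was 0.91 without the 2 farthest. Between Nop10 and Nhp2, r was 0.87 and rho 0.60 with an exact permutation p of 0.0306 and 0.242 (0.191 and 0.863 adjusted), and r was 0.55 without the 2 farthest. No pair passed after adjustment. The exact permutation p of rho has a floor with 6 tumours, so a single pair alone could not pass on rho over 25 pairs. Of all other probe sets on the array, 0.970% had an r with Nop10 at least as high as that of Nhp2, with negative r not counted. All probe sets share the array and its scaling, and between Dkc1 and Nop10 r was 0.66 and rho 0.43 (exact permutation p = 0.168 and 0.419, or 0.699 and 0.958 adjusted), with an r of -0.54 without the 2 farthest tumours.

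**Figure D3:**
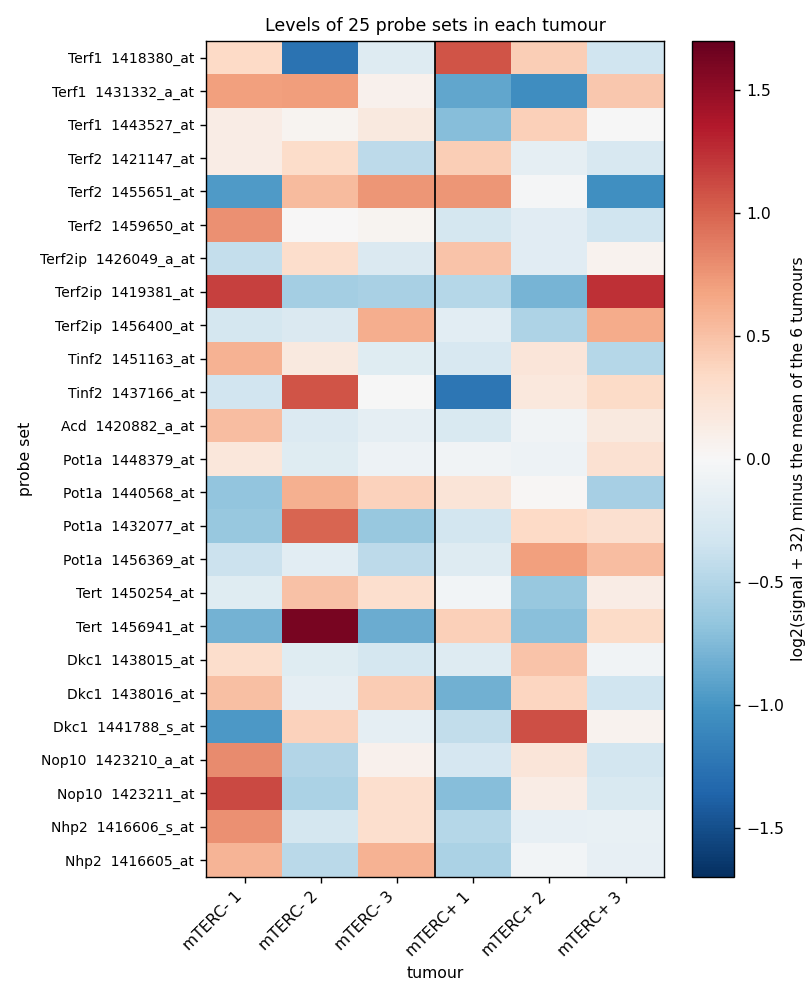
Level of each of the 25 probe sets (rows) in each tumour (columns, mTERC- left of the line), as log2 of the signal plus 32 minus the mean of the 6 tumours. The 4 rows of Nop10 and Nhp2 are high in mTERC- tumour 1, the highest tumour in 3 of them and second to mTERC- tumour 3 on probe set 1416605_at of Nhp2, while the rows of Terf1, Pot1a and Tert differ within a gene.

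Nop10 and Nhp2 depended on which tumours were compared. Leaving out mTERC- tumour 2, whose Gapdh ratio was 13.8, the log2 difference of Nhp2 was 0.78 and 0.83 on its 2 probe sets, and that of Nop10 was 0.57 and 0.99. None had an adjusted p below 0.966 in limma, and 3 of the 25 probe sets then had an unadjusted p below 0.05, against 3.64% of all. Groups then did not overlap with mTERC- higher for 5 of the 25, against 9.53% of all, and with mTERC- lower for 4, against 10.0%. The 5 higher were both probe sets of Nhp2, 1423211_at of Nop10, 1438016_at of Dkc1 and the weak 1459650_at of Terf2. The 4 lower were 1432077_at and 1456369_at of Pot1a, 1426049_a_at of Terf2ip and 1456941_at of Tert. Without mTERC- tumour 1 the leading differences were 0.25 for Nhp2 and -0.08 for Nop10. With a block for the 18S control, which sets mTERC- tumour 1 alone against the mTERC+ tumours, they were 1.03 and 0.93, and 4 of the 25 had an unadjusted p below 0.05, against 3.10% of all. The signal of Xist, the RNA of the silenced X chromosome in females, was 920.5 in mTERC- tumour 1 and 9.6 to 68.4 in the other 5 tumours. With a covariate for Y-linked genes, their mean log2 level, the differences were 0.24 and -0.01. That level was 6.37 in mTERC- tumour 1, 6.22 in mTERC- tumour 3 and 6.68 to 7.28 in the others. It thus does not set the tumour of high Xist apart from mTERC- tumour 3. The sex of the mice is not in the labels.

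**Figure D4:**
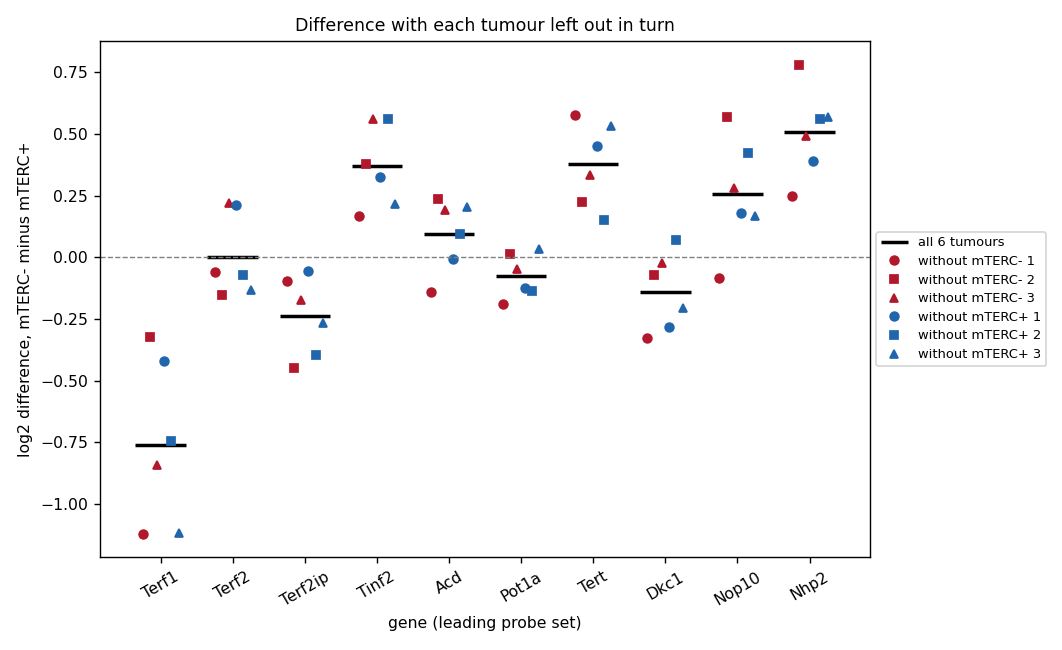
Log2 difference between mTERC- and mTERC+ tumours (y axis) of the leading probe set of each gene (x axis) with all 6 tumours (black line) and with each tumour left out (red, an mTERC- tumour; blue, an mTERC+ tumour). Tinf2, Tert and Nhp2 stay above 0 and Terf1 and Terf2ip below 0, while the other 5 genes take both signs.

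The bases upstream of the starts of Nop10, Nhp2 and their partner Dkc1 are shown. Nop10 and Nhp2 had a Pearson r of 0.87 over the tumours, but their correlation did not pass after adjustment. With them is Tinf2, the member whose ratio in the adenovirus livers was the largest in size. The sequences are RefSeq's for build GRCm38.p6, 250 bases before the annotated start, 5′ to 3′ on the strand of the gene. Capitals mark any GC box (GGGCGG), E-box (CACGTG) or CRE (TGACGTCA) found on either strand. The Nop10 window is chr2:112261676-112261925 on the plus strand, that of Nhp2 chr11:51619523-51619772 on the plus strand, that of Dkc1 chrX:75095604-75095853 on the plus strand and that of Tinf2 chr14:55681818-55682067 on the minus strand.
Nop10: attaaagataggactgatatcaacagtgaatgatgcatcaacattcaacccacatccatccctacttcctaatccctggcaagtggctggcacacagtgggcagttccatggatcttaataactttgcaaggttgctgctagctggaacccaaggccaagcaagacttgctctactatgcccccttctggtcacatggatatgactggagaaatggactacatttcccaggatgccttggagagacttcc
Nhp2: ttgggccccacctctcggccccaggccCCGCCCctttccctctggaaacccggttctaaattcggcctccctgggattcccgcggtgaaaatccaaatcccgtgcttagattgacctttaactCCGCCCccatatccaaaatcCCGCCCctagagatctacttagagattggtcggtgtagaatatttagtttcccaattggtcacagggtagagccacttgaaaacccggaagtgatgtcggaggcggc
Dkc1: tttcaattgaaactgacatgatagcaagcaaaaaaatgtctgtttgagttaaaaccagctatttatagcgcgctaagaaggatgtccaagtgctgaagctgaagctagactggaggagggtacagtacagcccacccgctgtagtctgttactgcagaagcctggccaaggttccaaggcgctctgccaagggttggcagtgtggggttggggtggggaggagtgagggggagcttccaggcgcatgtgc
Tinf2: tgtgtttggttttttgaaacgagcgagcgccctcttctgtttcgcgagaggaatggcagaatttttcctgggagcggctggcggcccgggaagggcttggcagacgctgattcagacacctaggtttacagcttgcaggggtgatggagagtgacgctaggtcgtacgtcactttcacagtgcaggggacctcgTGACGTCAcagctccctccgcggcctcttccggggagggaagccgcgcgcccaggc

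Nop10 and Nhp2 share none of these motifs. The Nhp2 window had 3 GC boxes and the Tinf2 window 1 CRE, while the Nop10 and Dkc1 windows had none of the motifs. Of the other members with a window, Tert had 2 GC boxes and Pot1a had 1, and those of Terf2, Terf2ip and Acd had none. A GC box is in 32.7% of 32851 such windows, an E-box in 6.02% and a CRE in 1.55%. These matches only describe the letters in the windows.

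The second comparison asked what the members did in p53-/- liver 48 hours after TRF2DBDM, a form of TRF2 cut short so that it displaces the cell's own protein, against GFP. With 1 array per group there was no test and no error, and the values describe these 2 pools. Ratios and folds of the pools are of the signal plus 32, as in the tumours, which lessens the change of weak probe sets. On that scale 0 of the 13 probe sets differed by at least 2-fold, where 4.46% of all probe sets did. Of all, 2.67% were higher and 1.79% lower in the TRF2DBDM pool. The plain signal ratio was past 2-fold on weak probe sets, at 2.22 for 1431332_a_at of Terf1 and 4.52 for 1419381_at of Terf2ip. A ratio above 1 was seen for 11 of 13, against 55.0% of all, with a median log2 ratio of 0.27 over the 13 and 0.04 over all. Centring both arrays on their medians moves every log2 ratio down by 0.11, and 9 of 13 were then above 0. The signal exceeded the array median in both pools for 8 of 13 probe sets and in neither for 5.

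Tinf2 was the member that differed most, and it was lower in the TRF2DBDM pool. Probe set 1451163_at had a signal of 292.9 in the TRF2DBDM pool and 538.1 in the GFP pool. The log2 ratio was -0.81, 1.75-fold lower, and 3.58% of all probe sets had a lower one. Over the 6 other settings the log2 ratio of Tinf2 lay between -0.92 and -0.75.

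Terf2 was at 145.7 in the TRF2DBDM pool and 105.1 in the GFP pool on probe set 1421147_at, a log2 ratio of 0.37. The sources used here do not say which part or species of TRF2 the virus carries or which part of the transcript the probe set covers, so this value does not check delivery of the virus gene. Terf1 had 38.5 against 22.7 and 34.6 against 15.6 on its 2 probe sets, all below the array medians. Terf2ip was also below them, at 20.3 against 11.5 and at 12.2 against 2.7. Acd had 140.9 in the TRF2DBDM pool and 123.0 in the GFP pool, and Pot1a had 65.2 and 57.5, log2 ratios of 0.16 and 0.12. The shelterin genes other than Tinf2 thus all had a ratio above 1 on these 2 arrays, on every probe set, as had 55.0% of all probe sets. Those of Terf1 and Terf2ip were weak, and with median centring the log2 ratios of Acd and Pot1a were 0.046 and 0.0070.

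Tert was hardly above the bottom of the scale in either pool, at 6.7 in the TRF2DBDM pool and 4.5 in the GFP pool. Nop10 had 1636 against 1313 and 658.5 against 470.0 on its 2 probe sets, log2 ratios of 0.31 and 0.46. Nhp2 had 849.9 against 828.6 on 1 probe set and 493.7 against 614.2 on the other, log2 ratios of 0.04 and -0.30. Nop10 and Nhp2, whose correlation in the tumours did not pass after adjustment, had ratios of different size here. The probe sets of Nhp2 had opposite signs, though with median centring both were below 0, at -0.077 and -0.41.

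**Figure D5:**
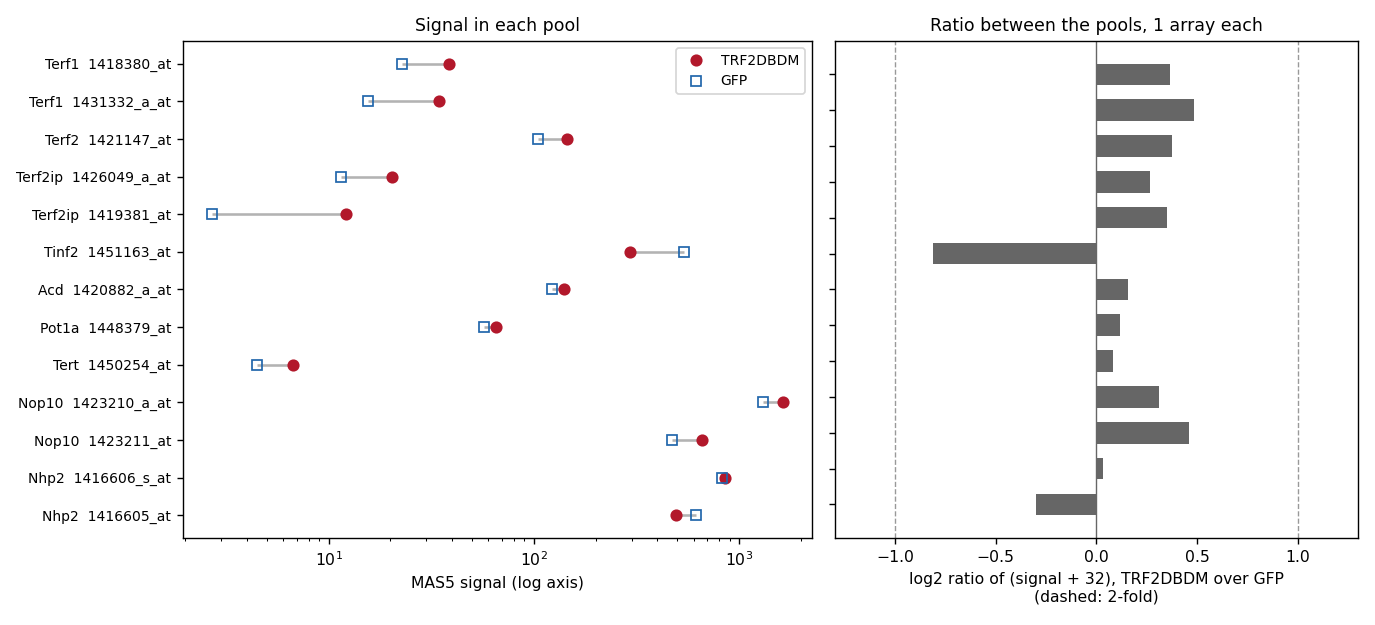
Left, MAS5 signal (log axis) of the 13 probe sets in the TRF2DBDM pool (red) and the GFP pool (blue). Right, log2 ratio of the signal plus 32, TRF2DBDM over GFP, with 2-fold marked by dashed lines. Tinf2 has the largest ratio in size, at -0.81, and no bar reaches 2-fold.

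Genes that work beside these members were read from 3 lists, each gene by its leading probe set. None of the 10 members is on them, and Gar1, Naf1 and Shq1 are on both the telomere and the nucleolar list. Other telomere genes, such as nucleases, helicases, the CST complex and telomerase assembly factors, went both ways in the tumours. Of 39 on the array 22 had a higher and 17 a lower mean in mTERC- tumours, 0 passed in limma and 0 had an unadjusted p below 0.05, where 0.0385% and 5.47% of all genes did. The median log2 difference was 0.07, against 0.03 over all genes. Stn1, a part of the CST complex that helps fill in the overhang, had the smallest p, at a mean of 15.9 ± 5.71 across mTERC- tumours, against 86.9 ± 44.0 across mTERC+ tumours (SD, n = 3 each, adjusted p = 0.955 in limma). Its groups did not overlap, as for 4.45% of all genes with mTERC- lower. The helicase gene Pif1 had a log2 difference of 1.04 and Mre11a, a nuclease of break repair, had 1.11, both with overlap between the groups.

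Nucleolar partners of the H/ACA proteins also went both ways. Of 23 genes 10 had a higher and 13 a lower mean in mTERC- tumours, 0 passed in limma and 1 had an unadjusted p below 0.05, and the median log2 difference was -0.09. Nop56, a core protein of the sister box C/D particles, had 656.4, 505.3 and 742.3 in mTERC- tumours, against 442.0, 419.5 and 382.5 in mTERC+ tumours. Nop16, a ribosome assembly factor, ran the other way, at 454.8, 165.3 and 315.4 against 775.6, 586.9 and 515.4. The groups did not overlap for either, where that held for 5.91% of all genes with mTERC- higher and 4.45% with mTERC- lower, and both had an adjusted p of 0.955 in limma. Polr1b, a subunit of RNA polymerase I, had 193 ± 39.7 against 93.4 ± 16.2, also without overlap (adjusted p = 0.955 in limma). Of the 23 genes, groups thus did not overlap for 2 with mTERC- higher and 1 with mTERC- lower. Of 18 proliferation genes 15 had a higher mean in mTERC- tumours, against 52.5% of all genes, with a median log2 difference of 0.35, and 0 passed in limma while 1 had an unadjusted p below 0.05.

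In the adenovirus livers 0 of 32 other telomere genes differed by at least 2-fold on the signal plus 32, where 5.10% of all genes did. Of these telomere genes 19 had a ratio above 1, as did 55.5% of all genes. The plain signals given below for Dclre1b and Polr1b were more than 2-fold apart. The PML body gene Pml was at 168.9 in the TRF2DBDM pool and 333.4 in the GFP pool, and Dclre1b, a nuclease that Terf2 brings to telomeres, was at 7.4 against 42.1. The RNA-binding protein gene Hnrnpa2b1 was at 284.1 against 155.7. Of 22 nucleolar genes 0 reached 2-fold and 16 had a ratio above 1. The highest ratios were those of Ncl, the gene of nucleolin, at 423.9 in the TRF2DBDM pool against 249.1 in the GFP pool, and Nop58 at 191.7 against 107.3. The lowest were those of Polr1b at 35.2 against 92.3 and Bop1, a ribosome assembly factor, at 316.8 against 475.3. Of 18 proliferation genes 15 had a ratio below 1, with a median log2 ratio of -0.29, and the mitotic kinase gene Plk1 was the 1 past 2-fold, at 530.6 against 1292.

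Levels in tumours and adenovirus livers were set side by side for the 13 probe sets on both array types. The arrays were scaled separately, and over the 22626 shared probe sets the median signal was 95.9 to 115.1 in tumours and 52.3 and 46.0 in the pools, so no test was made. The signal of Xist was 3607 in the TRF2DBDM pool and 2308 in the GFP pool. It was 920.5 in mTERC- tumour 1 and 9.6 to 68.4 in the rest of the tumours. The part of sex in the levels below was not tested. All 6 tumours lay above both pools for 5 of the 13, against 32.6% of all shared probe sets, and below both for 0, against 2.35%. Terf2ip, the Rap1 gene, was among these 5, at 97.3 to 208.4 in tumours and 20.3 and 11.5 in the TRF2DBDM and GFP pools on probe set 1426049_a_at. Its other probe set, 1419381_at, was not, at 2.4 to 108.8 in tumours against 12.2 and 2.7 in the pools. Tert, also among the 5, had 22.5 to 88.0 in tumours, against 6.7 and 4.5 in the pools. Tinf2 had 189.1 to 434.3 in tumours, which takes in the TRF2DBDM pool at 292.9 and lies below the GFP pool at 538.1.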

How the data were processed

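Expression was measured on Affymetrix arrays, 6 of tumours and 2 of pooled liver RNA. The deposited values are the MAS5 signal of each probe set, an intensity on a linear scale made by the authors with MAS5, per the submitters' processing notes. The series design also names ArrayAssist 4.0. The MAS5 version is not given in the sources used here. Arrays were used as the authors scaled them (mean without the lowest and highest 2% of 150 on each). Depth does not apply to arrays, and their number limits the precision.

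Levels were log2 of the signal plus 32. All probe sets except controls entered 1 fit (limma 3.58.1, R 4.3.3) with a trended prior variance, two-sided tests and Benjamini-Hochberg adjustment over all 45037, and passed below 0.05. The code was tested on simulated data. Pools were compared by the ratio of the signal plus 32, with 2-fold counted. The series design gives 3 mice per tumour group. Symbols came from the platform annotation (1 symbol only). All members are named, and from each list the 3 smallest p and the 2 highest and 2 lowest pool ratios could be named. Members and lists were chosen with earlier results of these data known. Alternatives were other normalizations, pseudocounts, filters, probe set rules, no trend, array weights, covariates and each tumour left out.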

Additional observations from a re-analysis of the deposited data

How the results depend on the processing

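Of the 25 probe sets 0 passed in limma under any of the 18 other settings (0 to 4 had an unadjusted p under 0.05), and the smallest adjusted p was 0.640 (Pot1a, probe set 1456369_at, with the Y-linked covariate), or 0.797 among leading probe sets (Terf1). Each gene was recomputed on its leading probe set, or on the mean of its probe sets in the setting of that name. Tinf2 and Nhp2 kept their sign in all, and of 179 such differences 21 took the other sign, each for a gene that did not pass. Their cause was not tested. The log2 difference of Terf2 was -0.047 with quantile normalization, -0.057 with median centring, -0.00062 with a pseudocount of 1 and -0.10 with array weights. That of Terf1 was 0.15 with the mean of its probe sets. With the Y-linked covariate Terf2ip had 0.036, Acd -0.054 and Nop10 -0.013, and with the 18S block Pot1a had 0.15, Tert -0.019 and Dkc1 0.23. With each tumour left out in turn, Terf2 ranged from -0.15 to 0.22, Acd from -0.14 to 0.24, Pot1a from -0.19 to 0.036, Dkc1 from -0.33 to 0.069 and Nop10 from -0.082 to 0.57. No paired analysis was made, because the groups were of different mice and the labels pair no tumours across them. The labels also give no replicate numbers.

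Over all probe sets, 9 passed in limma, and 5 did with median centring, 1 with the level filter, 3 with 1 symbol only, 1 with the highest probe set per gene, 0 with their mean (948 at an unadjusted p under 0.05), 0 with no trend (2285), 17 with the Y-linked covariate and 2 with the 18S block. With each tumour left out it was 5 to 30. In the pools, 1009 probe sets were past 2-fold, and 5492 were with a pseudocount of 1, 540 with a pseudocount of 64 and 4163 at 1.5-fold. The members past it were 2 with a pseudocount of 1, on weak probe sets of Terf1 and Terf2ip, and 1 at 1.5-fold, Tinf2. Of the 1009, 603 were higher in the TRF2DBDM pool and 406 lower, against 439 and 611 with median centring.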
